A study of Mus musculus with 17 samples.

Results

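The 7 genes Malat1, Neat1, Miat, Snhg11, Rian, Mirg and Pantr1, which make nuclear long noncoding RNAs, were followed in mouse cortex across Hnrnph2 mutants and controls. They were picked by symbol from the deposited expression table, and all 7 were found among its 55453 gene symbols, once each. All 7 also passed the filter for testing, a mean of at least 1 TPM (transcripts per 1000000), which 16265 genes passed. The tissue was bulk cortex of 17 male C57BL/6J mice, 12 of them 8 weeks old and 5 of them 3 weeks old. The 8-week groups were hemizygous Hnrnph2 knockouts (KO), hemizygous R206W knockins, and wild-type littermates kept as KO control and R206W control. The 3-week groups were hemizygous P209L knockins and their wild-type littermates (P209L control). Each group held 3 mice, except P209L control, of which 2 mice were analysed here. The KO allele is a frameshift with a premature stop codon, and both knockins change a residue in the region of hnRNPH2 that directs the protein to the nucleus. Each mutant was represented by a single line, and the P209L line was sampled at its own age, so that line and age cannot be told apart in any comparison of the 3-week with the 8-week mice. RNA came from whole dissected cortex, in which fewer cells of a type and less RNA per cell cannot be told apart.

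Long noncoding RNAs are transcribed and often spliced like messenger RNAs but are not known for a protein product, and many stay in the nucleus. Malat1 is concentrated in nuclear speckles, compartments rich in splicing factors, and Neat1 is the scaffold on which paraspeckles, bodies of RNA-binding proteins, are built. Miat, also called Gomafu, forms its own nuclear domains in neurons and carries repeats of a sequence that resembles the splicing branch point. Rian and Mirg belong to the imprinted Dlk1-Dio3 region, where they are read from the maternal chromosome together with Meg3. Rian hosts small nucleolar RNAs (snoRNAs) and Mirg hosts microRNAs in its introns. Snhg11 is named as a snoRNA host gene, and Pantr1 is read away from Pou3f3, a neuronal transcription factor gene of the developing cortex. The protein lost or altered in these mice, hnRNPH2, is one of the hnRNP H/F proteins, which bind runs of guanines in RNA and act in splicing. The libraries were made from total RNA, so transcripts without a poly(A) tail, such as mature Malat1 and the long form of Neat1, could be captured.

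The genes lie in 5 places of the genome (GENCODE release M21, build GRCm38). Malat1 (chr19:5795690-5802672) and Neat1 (chr19:5824708-5845478) are both on the minus strand, 22.0 kb apart, and the longest annotated transcript of each is a single unspliced exon. Rian (chr12:109603940-109661716) and Mirg (chr12:109729764-109749460) are on the plus strand, 68.0 kb apart. Miat (chr5:112213228-112229395) and Pantr1 (chr1:42590782-42694842) are on the minus strand, and Snhg11 (chr2:158375638-158386145) is on the plus strand. In that annotation 5 of them are lincRNA genes, Rian is a processed transcript, and Snhg11 is listed as protein coding.

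Malat1 and Neat1 are known to end in a triple helix in place of a poly(A) tail, built from U-rich elements and an A-rich tract. The 120 bases that close this element are shown because no other gene searched held the strings marked below in this order. The capitals mark the U-rich elements TTTCTTTT and TTTTGCTTTT and the A-rich AAAAAGCAAAA, which were read from the end of the annotated Neat1 transcript and searched, on the transcribed strand only, in the longest transcript of each gene.

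Malat1, chr19:5795982-5796101, minus strand: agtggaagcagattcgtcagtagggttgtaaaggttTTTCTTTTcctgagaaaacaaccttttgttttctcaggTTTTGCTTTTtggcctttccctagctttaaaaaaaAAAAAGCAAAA
Neat1, chr19:5824708-5824827, minus strand: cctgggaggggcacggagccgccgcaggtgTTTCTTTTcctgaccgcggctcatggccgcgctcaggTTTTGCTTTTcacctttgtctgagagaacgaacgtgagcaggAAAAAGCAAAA

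The 3 elements stood in this order within 120 bases in 2 of 16138 genes searched (0.0124%), which were Malat1 and Neat1. Neat1 had to match, because the elements were read from it, and elements with other letters were not searched for. The A-rich element alone was present in 1.03% of 16138 genes, Snhg11 among them. The Neat1 transcript ends with the element as annotated, whereas the Malat1 transcript runs 292 bases past it.

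Miat is shown by the stretch with its densest copies of TACTAAC, in capitals, the repeat that it is known for and that the splicing factor SF1 binds.

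Miat, chr5:112217319-112217468, minus strand: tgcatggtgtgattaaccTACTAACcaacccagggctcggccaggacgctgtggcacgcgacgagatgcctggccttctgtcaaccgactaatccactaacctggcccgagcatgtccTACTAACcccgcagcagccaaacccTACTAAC

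The longest Miat transcript (9163 bases) held 6 copies, Neat1 held 1 copy, and the other 5 genes held 0. Any copy was present in 7.6% of 16138 genes, and 1 gene, Slc8a1, had more copies than Miat (8). Because hnRNP H/F proteins bind guanine runs, runs of GGG or longer were also counted in the longest transcript of each gene, among 15294 genes with a transcript of at least 500 bases. Miat had 23.4 runs per kb, more than 97.5% of those genes, and Rian had 5.56 per kb, more than 3.41% of them. The other 5 genes lay between 10.4 (Snhg11) and 13.3 runs per kb (Neat1 and Mirg), near the median of 12.2. The windows of 60 bases with most runs are shown for these extremes, with the runs in capitals.

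Miat, chr5:112215954-112216013, minus strand: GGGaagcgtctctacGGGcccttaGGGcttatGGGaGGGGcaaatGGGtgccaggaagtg
Rian, chr12:109648115-109648174, plus strand: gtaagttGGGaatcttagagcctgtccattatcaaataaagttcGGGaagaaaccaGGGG

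Such matches describe letters in the transcripts, and binding of hnRNPH2 to them was not measured. The span of Mirg held 14 microRNA hairpins of RefSeq on the same strand, with 26 mature sequences, and that of Rian held 3 hairpins with 6. Among the 26, miR-453 (chr12:109735669-109735692) and miR-496a-5p (chr12:109739132-109739152) were the only pair with the same seed, in capitals (bases 2 to 8). They are shown with miR-134-5p (chr12:109734145-109734166), which is known for its action in dendrites. Mature microRNAs were not measured in these libraries, so the Mirg values describe the host transcript.

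mmu-miR-453: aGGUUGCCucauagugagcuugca
mmu-miR-496a-5p: aGGUUGCCcaugguguguuca
mmu-miR-134-5p: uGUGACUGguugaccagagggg

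The labels of the mice were checked on Hnrnph2, which was at 21.3 to 24.4 TPM in KO against 80.5 to 145 TPM in KO control (log2 difference -2.30 ± 0.17 SE, adjusted p = 8.64e-06 by limma). Hnrnph2 differed from its controls by 0.0023 in R206W and by 0.093 in P209L on the log2 scale, and Hnrnph1, its close paralog, was at 408 to 445 TPM in KO and 246 to 337 TPM in KO control (0.52 ± 0.13, adjusted p = 0.806). Markers of cortical excitatory neurons (8 of 8 found, summing to 1323 to 2795 TPM) were present in every mouse. Single libraries that stood apart were KO control 1 and P209L control 2. In KO control 1, mitochondrial genes took 20.1% of TPM against 10.7% to 15.4% in the other 16 mice. In P209L control 2, 5 choroid plexus markers summed to 1770 TPM, nearly all of it Ttr, against 2.50 to 26.1 TPM in the other 16. The 3-week libraries also differed from most 8-week libraries as a group. In them 4 mitochondrial pseudogenes took 16.1% to 18.8% of TPM. These took 20.7% in KO control 1 and 11.1% to 14.7% in the other 8-week mice. TPM keeps no read counts, so the sequencing depth of each mouse is unknown.

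Rian and Snhg11 were the most abundant of the 7 RNAs, with means of 1025 and 995 TPM over all mice, ranks 50 and 53 of 16265 genes. Malat1 followed with 410 TPM, Miat with 245, Pantr1 with 201, Mirg with 62.4 and Neat1 with 45.3. TPM is scaled to transcript length, so these levels may be compared between genes, as far as the isoforms used for the length were right. Rian was above Snhg11 in 13 of 17 mice, with ratios from 0.866 to 1.20, so these neighbours in the order were not separated. Snhg11 was above Malat1, and Pantr1 above Mirg, in all 17 mice. Malat1 was above Miat in 16 mice, Miat above Pantr1 in 15 and Mirg above Neat1 in 14. Together the 7 genes made up 0.239% to 0.309% of all TPM in the 8-week mice and 0.329% to 0.358% in the 3-week mice.

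**Figure D1:**
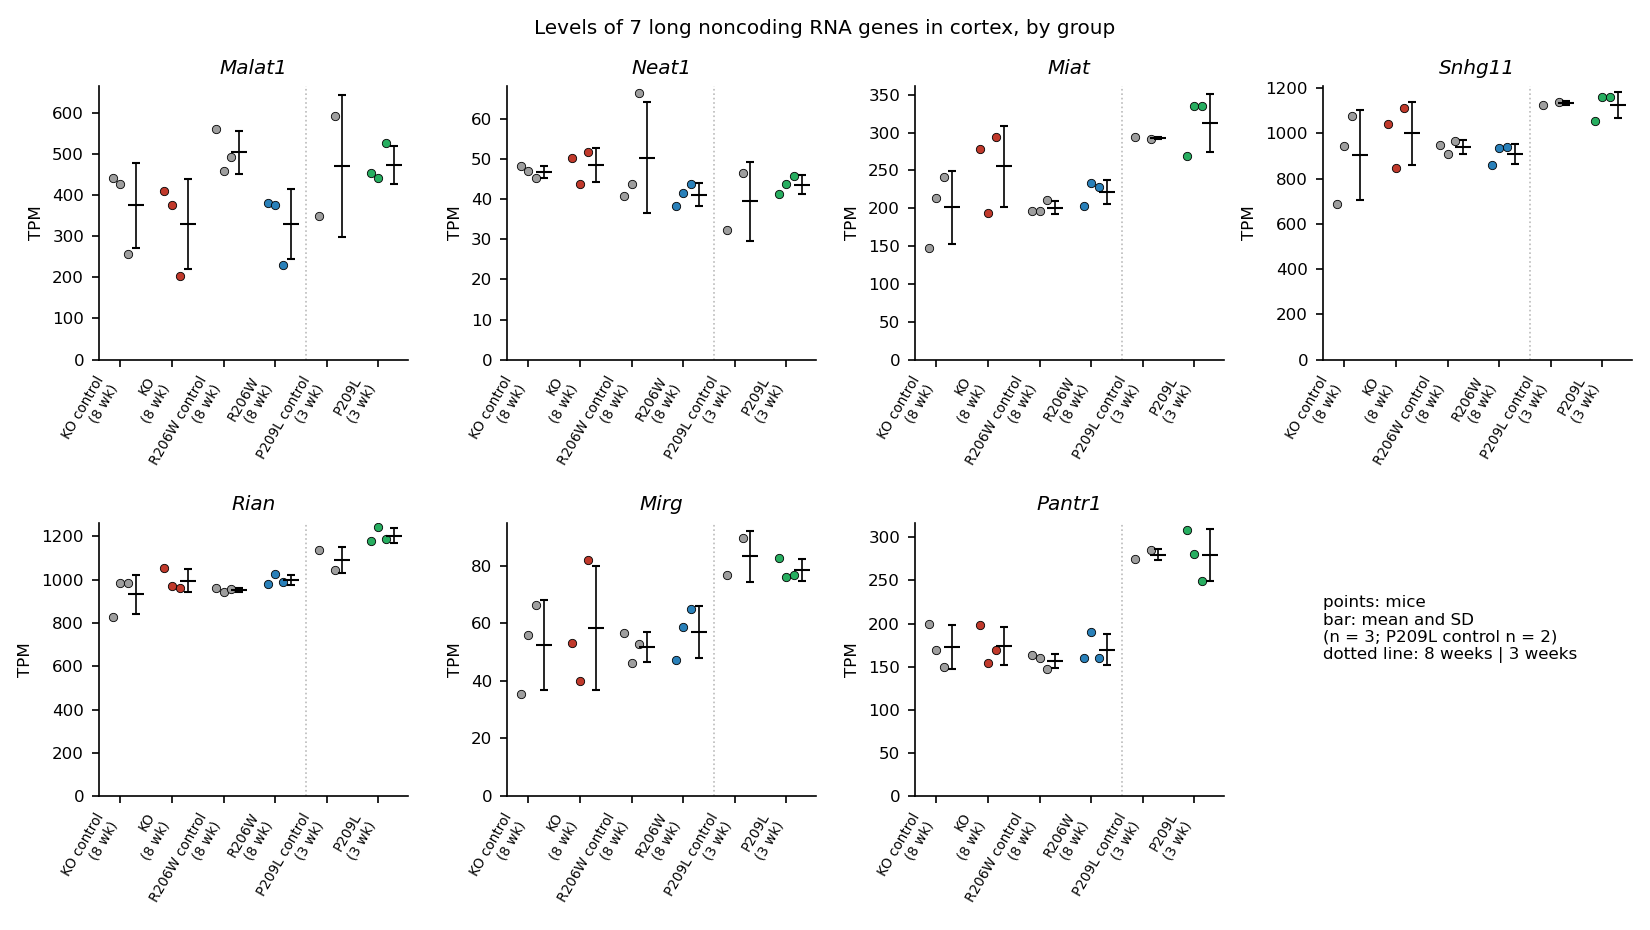
TPM (vertical axes, from 0) of the 7 genes in each mouse (points), by group, with the mean and SD of each group as bars (n = 3, P209L control n = 2) and a dotted line between the 8-week and the 3-week groups. Pantr1 shows all 5 mice of 3 weeks (249 to 308 TPM) above all 12 mice of 8 weeks (147 to 199 TPM), whereas Malat1 spreads widely within groups.

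The question of the mutant comparisons is whether losing or altering hnRNPH2 changes RNA levels in cortex. For the nuclear long noncoding RNAs, 0 of 7 passed an adjusted p of 0.05 (limma on log2(TPM + 1), Benjamini-Hochberg over all genes) in any of the 3 mutants. Over all 16265 genes, 0.00615% passed in KO, 0.0369% in R206W and 0.0984% in P209L. The 1 gene that passed in KO was Hnrnph2. At an unadjusted p under 0.05, 0 members passed in KO (4.08% of all genes), 1 in R206W (2.19%) and 0 in P209L (7.46%). The median log2 difference of the 7 was 0.099, 0.068 and 0.055 in the same order, beside 0.064, 0.0096 and 0.016 over all genes tested. Exact permutation tests of 3 mice against 3, or 3 against 2, cannot go below p = 0.1.

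The largest difference of the 7 was that of Malat1 in R206W. Its level was 382, 375 and 231 TPM in the 3 R206W mice and 561, 457 and 492 TPM in the 3 R206W controls, so every R206W mouse lay below every control. The log2 difference was -0.64 ± 0.28 (SE, 95% interval -1.23 to -0.049, unadjusted p = 0.0356), which did not pass over all genes (adjusted p = 1). An exact permutation test gave p = 0.1. The size leaned on R206W 3, the lowest mouse, without which the difference was -0.41 ± 0.29 (adjusted p = 1). Malat1 and Rian were the 2 of 7 genes whose R206W groups did not overlap, beside 16.2% of all genes (8.09% higher and 8.11% lower). In the KO line, Malat1 was at 409, 375 and 204 TPM in KO and at 442, 426 and 256 TPM in KO control. These groups overlapped, with a log2 difference of -0.21 ± 0.28 (adjusted p = 0.999) that was 0.11 ± 0.27 without KO 3. In the P209L line it was at 453, 441 and 527 TPM in P209L and at 348 and 592 TPM in its 2 controls, which enclosed the mutants on both sides. The P209L difference was 0.055 ± 0.31, and -0.33 or 0.44 without the first or the second control. The 2 groups of wild-type mice of 8 weeks also differed by 0.46 ± 0.28 in Malat1, with all 3 R206W controls above all 3 KO controls (adjusted p = 0.784), the 1 member of 7 that did not overlap between them (9.07% of all genes, 8.43% as higher).

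Neat1 stayed within 32.4 to 66.3 TPM in all 17 mice, and its groups overlapped in each mutant comparison. It was at 43.8 to 51.6 TPM in KO against 45.3 to 48.2 TPM in KO control, a log2 difference of 0.048 ± 0.16. In R206W it was at 38.2 to 43.8 TPM against 40.9 to 66.3 TPM, where 1 control lay above the rest (-0.25 ± 0.16, adjusted p = 1), and without that mouse, R206W control 3, the difference was -0.042 ± 0.14. In P209L it was at 41.3 to 45.9 TPM against 32.4 and 46.4 TPM (0.16 ± 0.18, adjusted p = 0.931), a difference of 0.42 ± 0.21 without P209L control 2 and of -0.088 ± 0.21 without P209L control 1.

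The highest Miat levels of the 8-week mice were those of 2 KO mice. It was at 278, 194 and 294 TPM in KO against 147, 214 and 242 TPM in KO control, and the groups overlapped. The log2 difference of 0.35 ± 0.17 had a 95% interval from -0.020 to 0.72 (adjusted p = 0.999). The lowest control value came from KO control 1, the mouse with the high mitochondrial share, without which the Miat difference was 0.14 ± 0.15. In R206W and P209L the Miat difference was 0.14 ± 0.17 and 0.089 ± 0.19. Snhg11, at 846 to 1112 TPM in KO and 689 to 1079 TPM in KO control, differed by 0.16 ± 0.14, which was -0.023 ± 0.11 without KO control 1. In R206W and P209L Snhg11 differed by -0.049 ± 0.14 and -0.011 ± 0.16.

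Rian had the narrowest intervals of the 7. In R206W it was at 981, 1025 and 991 TPM against 960, 942 and 956 TPM, which did not overlap, and in P209L at 1178, 1244 and 1188 TPM against 1135 and 1047 TPM, which did not overlap either (1 of 7 members, beside 24.9% of all genes, 14.2% as higher). The log2 differences were 0.068 ± 0.088 in R206W and 0.14 ± 0.099 in P209L, both with an exact permutation p of 0.1 and adjusted p of 1 and 0.841. In KO it was at 1055, 971 and 963 TPM against 828, 984 and 984 TPM (0.099 ± 0.088), and 0 of 7 members had separate groups there (6.25% of all genes). The 95% intervals kept Rian between 0.941 and 1.22 times its control level in KO, 0.921 and 1.19 times in R206W, and 0.954 and 1.28 times in P209L.

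Mirg varied more from mouse to mouse than Rian, its neighbour. It was at 53.2, 40.0 and 81.9 TPM in KO and at 35.6, 55.7 and 66.3 TPM in KO control, and these groups overlapped. The Mirg difference was 0.13 ± 0.23 in both 8-week mutants and -0.080 ± 0.26 in P209L. In KO it was -0.12 ± 0.22 without KO control 1 and -0.14 ± 0.21 without KO 3. Meg3, the third maternal RNA of the region, was at 1536 to 2280 TPM in KO against 1169 to 1795 TPM in KO control (0.33 ± 0.16, unadjusted p = 0.0522, adjusted p = 0.999). Of the 6 other genes listed for this region, Dlk1, Rtl1, Dio3 and Dio3os were below a mean of 1 TPM and were not tested, and beside Meg3 there remained Begain, which differed by 0.13 ± 0.13 in KO.

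Pantr1 was at 154 to 198 TPM in KO against 149 to 199 TPM in KO control, and at 249 to 308 TPM in P209L against 275 and 285 TPM in its controls. These differences were 0.012 ± 0.13 and -0.0086 ± 0.14, and that of R206W was 0.11 ± 0.13 (adjusted p = 1 for all 3). Their 95% intervals lay between 0.806 and 1.30 times the control level.

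The effects themselves did not differ between lines for any member by test. KO minus R206W, KO minus P209L and R206W minus P209L each gave 0 of 7 members past the adjusted threshold and 0 of 7 at an unadjusted p under 0.05 (limma, beside 0.0307%, 0.0492% and 0.0% of all genes past the adjusted threshold and 2.29%, 7.98% and 3.98% at the unadjusted one). The largest of these 21 differences was that of Malat1 between R206W and P209L, -0.70 ± 0.42 (95% interval -1.59 to 0.19). Both groups of 8-week wild-type mice, R206W control and KO control, also gave 0 of 7 members past either threshold (0.0% and 3.12% of all genes).

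**Figure D2:**
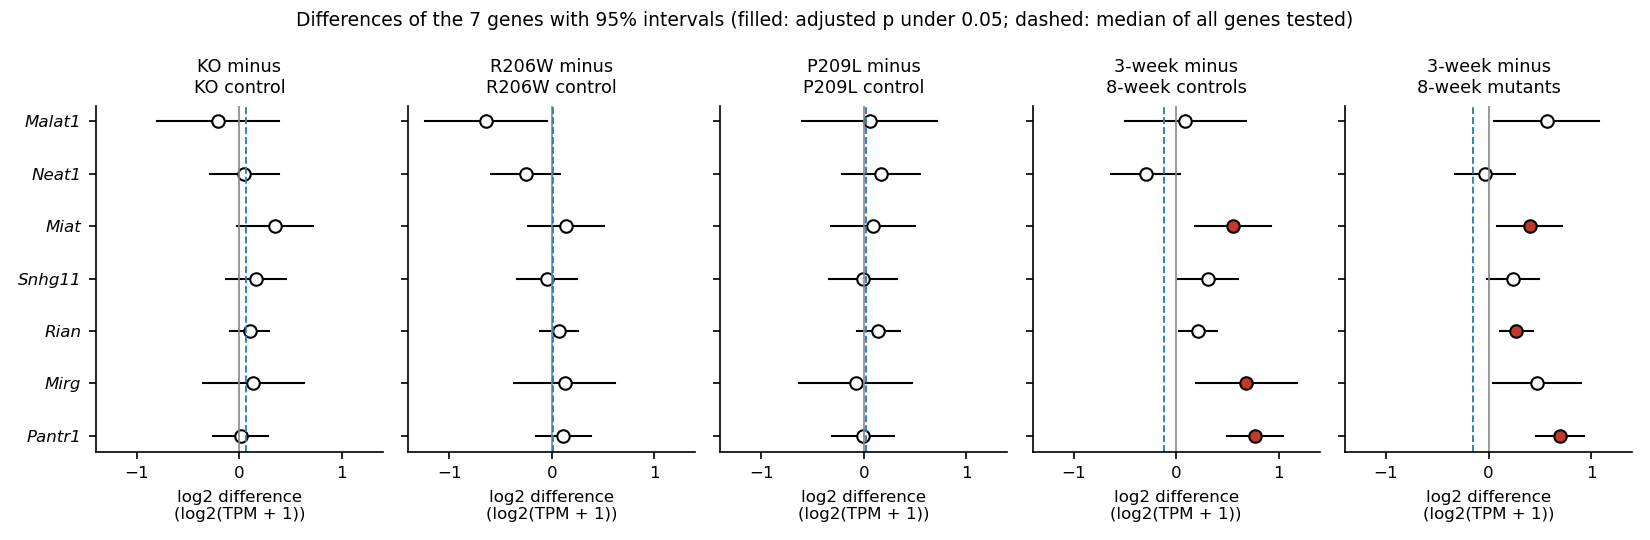
Log2 differences of the 7 genes in 5 comparisons (horizontal axes, log2(TPM + 1)) with 95% intervals of the limma fit as lines. Filled points passed an adjusted p of 0.05, open points did not, and the dashed line is the median of all genes tested. No point is filled in the 3 mutant comparisons, and Miat and Pantr1 are filled in both age comparisons.

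Between the 3-week and the 8-week controls, Pantr1, Mirg and Miat were higher at 3 weeks, 3 of 7 members past the threshold (36.1% of all genes passed, 11.3% of all genes as higher). Between the 3-week and the 8-week mutants, Pantr1, Miat and Rian were higher, again 3 of 7 (45.9% of all genes passed, 13.9% as higher). No member passed as lower in either comparison (24.8% of all genes in controls and 32.1% in mutants). The medians of the 7 were 0.31 in controls and 0.40 in mutants, beside -0.12 and -0.16 over all genes tested. TPM therefore sat lower for most genes at 3 weeks, and changes are also given on a scale set by median-of-ratios size factors, in which the medians of all genes were close to 0. On that scale 5 of 7 members passed as higher in controls (44.1% of all genes passed, 21.5% as higher) and 6 of 7 in mutants (51.4% and 26%), and 0 as lower. The direction of calls over all genes depended on the scale, with 1837 higher and 4039 lower in controls on TPM and 3503 higher and 3677 lower with size factors. In mutants these were 2257 and 5213 on TPM and 4222 and 4134 with size factors.

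Pantr1 gave the clearest difference. It was at 275 and 285 TPM in the 2 P209L controls and at 308, 280 and 249 TPM in the P209L mice. The 8-week mice were lower, at 199, 170 and 149 TPM in KO control, 198, 154 and 169 TPM in KO, 163, 160 and 147 TPM in R206W control, and 160, 190 and 160 TPM in R206W. Every 3-week mouse lay above every 8-week mouse. The log2 difference was 0.77 ± 0.13 in controls (1.70-fold, 95% interval 1.41 to 2.05, adjusted p = 0.000425) and 0.70 ± 0.11 in mutants (1.62-fold, 1.38 to 1.91, adjusted p = 0.000191). The exact permutation p was 0.0357 and 0.0119, the smallest that 2 against 6 and 3 against 6 mice can give. Pantr1 passed in all 20 alternatives run for controls and all 21 for mutants, and without P209L control 2 its difference was 0.74 ± 0.17 (adjusted p = 0.0123).

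Miat was at 294 and 291 TPM in the P209L controls against 147 to 242 TPM in the 6 controls of 8 weeks, without overlap (0.56 ± 0.17, adjusted p = 0.0214). In mutants it was at 269, 335 and 335 TPM against 194 to 294 TPM, which overlapped (0.40 ± 0.15, adjusted p = 0.0401). These calls were not kept in every fit. With no filter on low values, the adjusted p for Miat was 0.0514 in controls and 0.0863 in mutants (limma). Some fits with 1 mouse left out lost the calls too. In controls, the difference stayed at 0.55 without P209L control 1 and 0.56 without P209L control 2, fits that leave 1 mouse in that group. In mutants the adjusted p was 0.0798 without KO 2, 0.144 without P209L 2, 0.127 without P209L 3, 0.0762 without R206W 1 and 0.0567 without R206W 3. The differences in those fits were 0.31, 0.35, 0.35, 0.37 and 0.41 in the same order. With size factors Miat was higher by 0.70 ± 0.12 in controls (adjusted p = 0.000535) and by 0.58 ± 0.11 in mutants (adjusted p = 0.00049).

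Mirg was at 76.8 and 89.5 TPM in the P209L controls against 35.6 to 66.3 TPM in the 8-week controls, also without overlap (0.68 ± 0.23, adjusted p = 0.0309). In mutants it was at 82.7, 76.1 and 76.7 TPM against 40.0 to 81.9 TPM, where KO 3 reached into the 3-week range (0.47 ± 0.20, adjusted p = 0.0639). Without KO 3 the mutant difference was 0.61 ± 0.17 and passed (adjusted p = 0.0113). The control difference no longer passed without R206W control 2 (adjusted p = 0.0572) or with no filter on low values (0.0742). It was 0.79 without P209L control 1 and 0.58 without P209L control 2, fits that leave 1 mouse in that group and did not keep the call. With size factors both passed, at 0.82 ± 0.19 and 0.66 ± 0.16.

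Rian was higher at 3 weeks in mutants by 0.27 ± 0.076 (adjusted p = 0.00944), with all 3 P209L mice (1178 to 1244 TPM) above all 6 KO and R206W mice (963 to 1055 TPM). In controls, 1135 and 1047 TPM at 3 weeks lay above 828 to 984 TPM at 8 weeks, with a difference of 0.21 ± 0.088 that did not pass (adjusted p = 0.0706). Without KO control 1, the lowest of the 8-week controls, it was 0.17 ± 0.064 and passed (adjusted p = 0.0375), and with size factors it was 0.35 ± 0.090 (adjusted p = 0.00561). Thus 5 of 7 members had control groups that did not overlap between ages, all higher at 3 weeks (38.2% of all genes, 16.7% as higher), and 3 of 7 in mutants, also all higher (40.2% and 11.7%).

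Snhg11 and Malat1 did not pass on the TPM scale, and Neat1 passed on neither scale. Snhg11 was at 1128 and 1139 TPM against 689 to 1079 TPM in controls (0.31 ± 0.14, adjusted p = 0.0934), and without KO control 3 the difference was 0.38 ± 0.12 (adjusted p = 0.0296). In mutants Snhg11 differed by 0.24 ± 0.12 (adjusted p = 0.111). Malat1 differed by 0.088 ± 0.28 in controls, or by -0.29 ± 0.35 without P209L control 2, and by 0.57 ± 0.24 in mutants, in which all 3 P209L mice lay above all 6 mutants of 8 weeks (adjusted p = 0.0656), and without KO 1 the mutant difference was 0.66 ± 0.25 (adjusted p = 0.0413). Neat1 differed by -0.30 ± 0.16 in controls and by -0.032 ± 0.14 in mutants (adjusted p = 0.156 and 0.866). Without P209L control 2 the Neat1 difference in controls was -0.55 ± 0.20 (adjusted p = 0.0655). With size factors Snhg11 differed by 0.45 ± 0.094 in controls (adjusted p = 0.00162) and by 0.43 ± 0.081 in mutants (adjusted p = 0.000638). On that scale Malat1 differed by 0.23 ± 0.33 in controls (adjusted p = 0.592) and by 0.75 ± 0.28 in mutants (adjusted p = 0.0374). Neat1 differed there by -0.16 ± 0.18 and 0.15 ± 0.15.

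Cell type markers moved with age too. Between controls, 5 of 7 oligodendrocyte markers were higher at 3 weeks and summed to 4075 to 6083 TPM against 2617 to 3592 TPM in the 8-week controls. The higher sum was that of P209L control 2. Without this mouse the median log2 difference of the 7 was 0.45, against 0.72 with it. Between mutants, 0 of these 7 were higher and 1 was lower, with sums of 2462 to 3533 TPM against 2799 to 3927 TPM. Of 8 excitatory neuron markers, 4 were lower in each comparison, with sums of 1323 to 1699 TPM at 3 weeks and 1635 to 2795 TPM at 8 weeks. Astrocyte markers were lower for 2 of 7 genes in controls and 5 of 7 in mutants, microglia for 4 of 7 in each, endothelial for 2 of 6 and 5 of 6, and interneuron for 1 of 7 and 3 of 7, with 1 interneuron marker higher in mutants. Over all genes 24.8% were lower in controls and 32.1% in mutants, and 11.3% and 13.9% were higher. The fit without P209L control 2 leaves 1 mouse in that group, so list medians in controls are given for it in place of calls. They were -0.43 for excitatory neurons, -0.57 for astrocytes, -0.43 for microglia, -0.77 for endothelial cells and -0.36 for interneurons, beside -0.13 over all genes. With that mouse they were -0.52, -0.39, -0.38, -0.57 and -0.33, beside -0.12. Of 5 oligodendrocyte precursor markers 1 was higher in controls and 2 lower in mutants, and of 4 immature neuron markers tested 0 passed. Of choroid plexus markers, 1 of 2 tested was higher in controls, Ttr, at 8.31 and 1740 TPM in the 2 P209L controls. The 3-week groups also differed from each other. Between P209L and P209L control, 7 of 7 oligodendrocyte markers had an unadjusted p under 0.05 (limma, 7.46% of all genes), with a median of -0.87. Of these, 0 passed the adjusted threshold, and 2 passed as lower with size factors (29 of all 16265 genes as lower). Without P209L control 2 that median was -0.63. None of the markers was at 0 in every mouse, and their part in the age differences of the 7 genes was not tested.

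The genes that work with these RNAs were read as whole lists. Of 12 proteins of paraspeckles, the bodies built on Neat1, 5 were lower at 3 weeks in controls and 4 in mutants, and 0 were higher. Over all genes 24.8% and 32.1% were lower, so the mutant count was near the background. The median of the list was -0.28 and -0.22, beside -0.12 and -0.16 over all genes. Sfpq, a paraspeckle core protein, was at 83.8 ± 0.587 TPM in P209L control (SD, n = 2) against 164 ± 18.0 TPM in 8-week controls (n = 6), a log2 difference of -0.95 ± 0.099 (adjusted p = 1.89e-05), and it was also lower in mutants (-0.50 ± 0.086, adjusted p = 0.000347). Rbm14 was lower at 3 weeks by 0.88 and 0.77 on the log2 scale in the 2 comparisons. Tardbp was lower at 3 weeks by 0.59 in controls, and Smarca4 by 0.93 in mutants. With size factors 2 of 12 were higher and 6 lower in controls, and 3 higher and 4 lower in mutants. On that scale 44.1% of all genes passed in controls (21.5% as higher) and 51.4% in mutants (26% as higher). The mutant counts were thus near the background there too. Without P209L control 2, the median of the list in controls was -0.30. In KO, R206W and P209L, 0 of 12 passed.

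Of 12 nuclear speckle proteins, the neighbours of Malat1, 2 were higher and 1 lower at 3 weeks in controls and 3 were higher in mutants, beside 11.3% and 13.9% of all genes as higher. Srrm2, a large protein at the core of speckles, was higher in both (0.61 ± 0.17, adjusted p = 0.0123, and 0.47 ± 0.15, adjusted p = 0.0173), Snrnp70 was higher in controls, Pnn and Srsf6 in mutants, and Srsf3 was lower in controls. With size factors 7 of 12 were higher in controls and 9 of 12 in mutants (21.5% and 26% of all genes), and 0 lower. Without P209L control 2, the median of the list in controls on the TPM scale was 0.11, against 0.15 with it. Between mutants and controls of each line, 0 of 12 passed.

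Other snoRNA host genes were mostly higher at 3 weeks. Of 15 such genes, whose introns carry the small RNAs that guide modification of ribosomal and spliceosomal RNA, 11 were higher at 3 weeks in controls and 11 in mutants (11.3% and 13.9% of all genes), and 0 were lower, with medians of 0.53 and 0.64. Snhg20 was at 73.9 ± 1.15 TPM (SD, n = 2) against 29.5 ± 1.62 TPM (n = 6) in controls (1.30 ± 0.14, adjusted p = 2.07e-05). Snhg3 (0.76 ± 0.13 in controls, 1.21 ± 0.11 in mutants) and Snhg8 (1.03 ± 0.18 and 1.31 ± 0.16) passed in both, whereas 4 genes of the list passed in neither. Without P209L control 2, the median of the list in controls was 0.49. In the 3 mutant comparisons 0 of 15 passed. Whether the Snhg11 difference departs from that of these genes was not tested.

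Of 18 other named long noncoding RNAs tested, 3 were higher and 4 lower at 3 weeks in controls, and 4 were higher and 3 lower in mutants. These 7 of 18 calls lay near or below the share of all genes, 36.1% in controls and 45.9% in mutants. Meg3 was at 2364 and 2345 TPM in P209L control against 1169 to 1795 TPM in the 8-week controls (0.60 ± 0.16, adjusted p = 0.00861), and it was higher in mutants by 0.42 ± 0.14 (adjusted p = 0.0209). Firre, which organizes chromatin in the nucleus, was higher in both (0.58 and 0.43). Peg13, an imprinted RNA of brain, was lower at 3 weeks by 1.48 and 1.61 on the log2 scale, and Tug1 was lower by 0.48 and 0.42. With size factors 6 were higher and 3 lower in controls, and 7 higher and 1 lower in mutants. On that scale 44.1% of all genes passed in controls (21.5% as higher) and 51.4% in mutants (26% as higher). Without P209L control 2, the median of the list in controls was 0.051, against 0.21 with it. None of the 18 passed in KO, R206W or P209L.

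**Figure D3:**
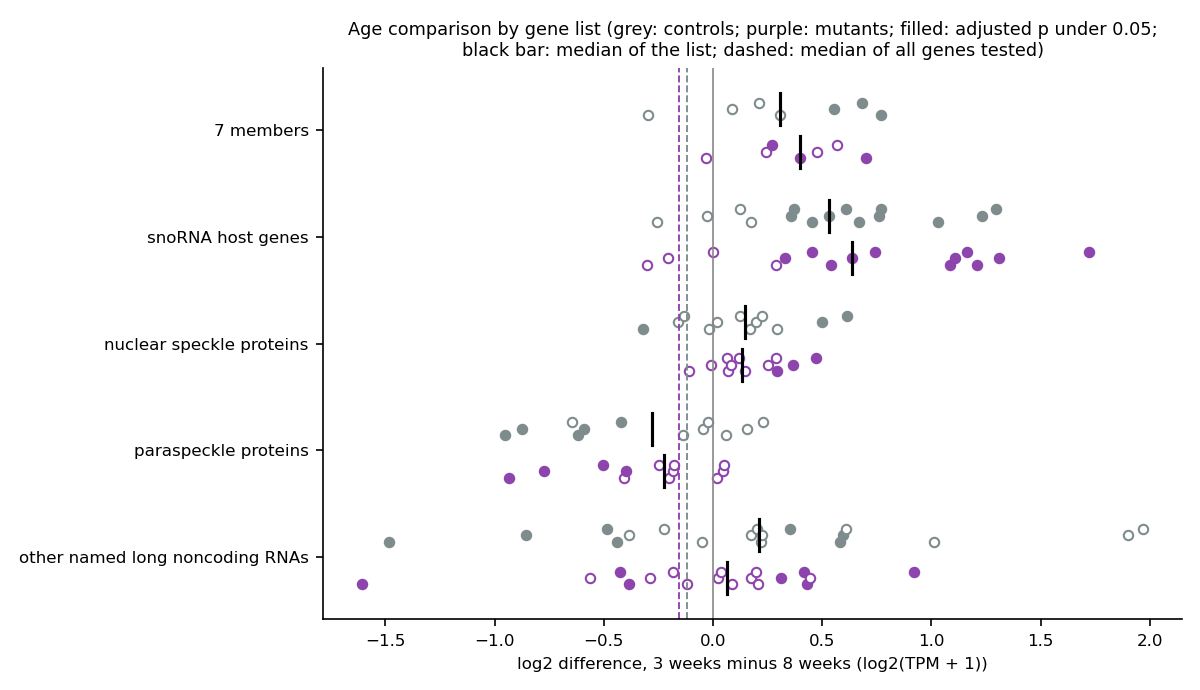
Log2 differences between 3 and 8 weeks (horizontal axis, log2(TPM + 1)) for the 7 genes and 4 gene lists, with 1 point per gene, controls in grey and mutants in purple, filled where the adjusted p was under 0.05. Black bars are list medians and dashed lines the medians of all genes tested. The snoRNA host genes lie to the right, with medians of 0.53 and 0.64, and the paraspeckle proteins to the left, with medians of -0.28 and -0.22.

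Pantr1 and Pou3f3, whose starts lie 0.926 kb apart on opposite strands, differed in opposite directions. Pou3f3 was at 14.6 and 15.7 TPM in P209L control and at 15.1, 16.2 and 19.7 TPM in P209L. The 12 mice of 8 weeks lay above all of these, at 20.3 TPM in KO control 1 and at 25.4 to 37.0 TPM in the other 11. The log2 difference was -0.87 ± 0.15 in controls (adjusted p = 0.000633) and -0.79 ± 0.13 in mutants (adjusted p = 0.000307). The ratio of Pantr1 to Pou3f3 in a mouse was 12.7 to 20.4 at 3 weeks and 4.31 to 9.82 at 8 weeks. Neither gene differed by test in KO, R206W or P209L.

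**Figure D4:**
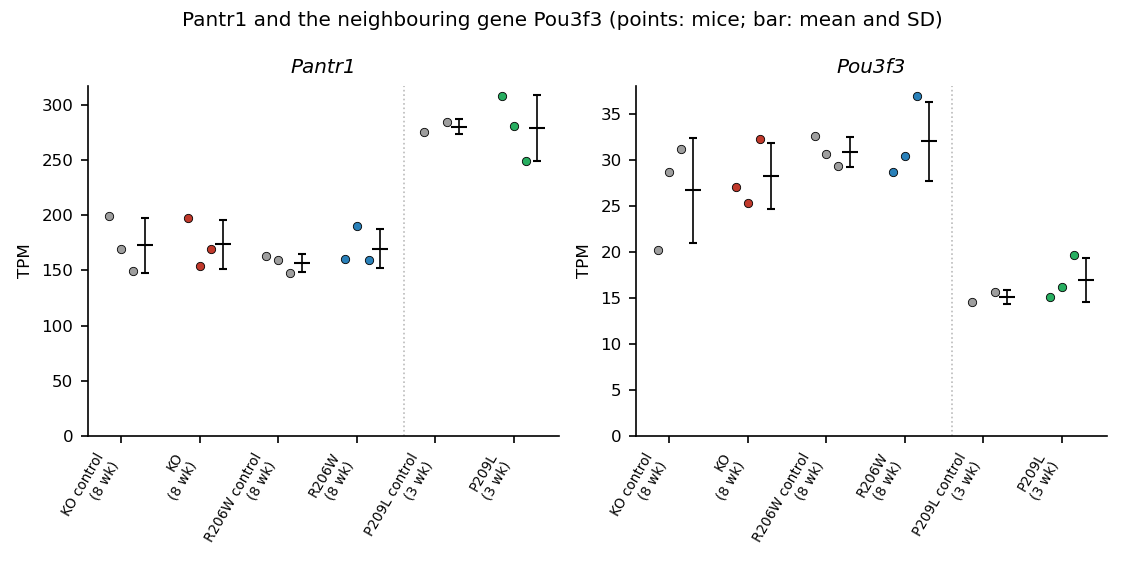
TPM (vertical axes, from 0) of Pantr1 and Pou3f3 in each mouse (points), with the mean and SD of each group as bars. At 3 weeks all 5 mice are higher in Pantr1 (249 to 308 TPM) and lower in Pou3f3 (14.6 to 19.7 TPM) than the 12 mice of 8 weeks.

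The nearest protein-coding genes of the other members did not share one direction. Frmd8, next to Neat1, was lower at 3 weeks in mutants (-0.49 ± 0.16, adjusted p = 0.0184), at 4.40 to 5.05 TPM in P209L. It did not pass in controls, where 5.35 and 7.30 TPM at 3 weeks lay within the 4.12 to 7.73 TPM of 8 weeks. Cryba4, next to Miat, was higher at 3 weeks in mutants (1.09 ± 0.15, adjusted p = 7.14e-05) from a low level, 3.01 to 3.49 TPM against 0.57 to 1.18 TPM in the 8-week mutants. Cryba4 did not pass in controls either, at 1.28 and 2.35 TPM at 3 weeks against 0.73 to 1.5 TPM at 8 weeks. Ralgapb, next to Snhg11, was lower in both comparisons (-0.53 ± 0.17 and -0.60 ± 0.14, adjusted p = 0.0213 and 0.00334). Of the flanks of Rian and Mirg, Rtl1 and Dio3, and of Gm26897 and Tmem182, no level reached a mean of 1 TPM. Between P209L and P209L control, 2 of the 6 nearest genes tested had an unadjusted p under 0.05 (limma, 7.46% of all genes). In that comparison 0 of the 6 passed the adjusted threshold.

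Within groups, the spread between mice differed strongly among the 7 genes. The within-group SD of log2(TPM + 1) was 0.39 for Malat1 and 0.32 for Mirg, larger than in 97.2% and 96.3% of the 1000 genes nearest in level. For Rian it was 0.077, larger than in 4% of them. Malat1 was lowest in KO control 3, KO 3 and R206W 3, at 256, 204 and 231 TPM, each the lowest mouse of its group. In the KO mice Malat1 ranged 2.01-fold and Mirg 2.05-fold.

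Some of the 7 RNAs deviated together from mouse to mouse. After each group's mean was subtracted, Pearson's r over 17 mice was 0.97 between Miat and Snhg11 (Spearman's rho 0.95), 0.87 between Mirg and Snhg11 (0.73) and 0.80 between Miat and Mirg (0.58). Without the 2 mice farthest out in the first gene named of each pair, these were 0.94, 0.83 and 0.57. Meg3 was as closely alike, with 0.97 to Miat and 0.96 to Snhg11. Malat1 deviated the other way from Mirg (r = -0.59), and without the 2 mice farthest out in Malat1 the relation was weaker (r = -0.27). Rian and Mirg, which are neighbours in the same imprinted region, had r = 0.39, and -0.16 without KO control 1. With size factors r was -0.34 for Rian and Mirg, and for Rian and Pantr1 it was 0.83 against -0.19 on the TPM scale, whereas Miat and Snhg11 had 0.93. These correlations share the library of each mouse, whose total sets every TPM. The mitochondrial share had r = -0.85 with Snhg11, -0.78 with Mirg, -0.75 with Miat and 0.54 with Malat1, and 16 mice without KO control 1 gave 0.96 between Miat and Snhg11. The mean log2 level of the excitatory neuron markers had r = 0.84 with Snhg11, 0.77 with Mirg, 0.74 with Miat and -0.54 with Malat1. The part of either measure in the correlations was not tested.

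**Figure D5:**
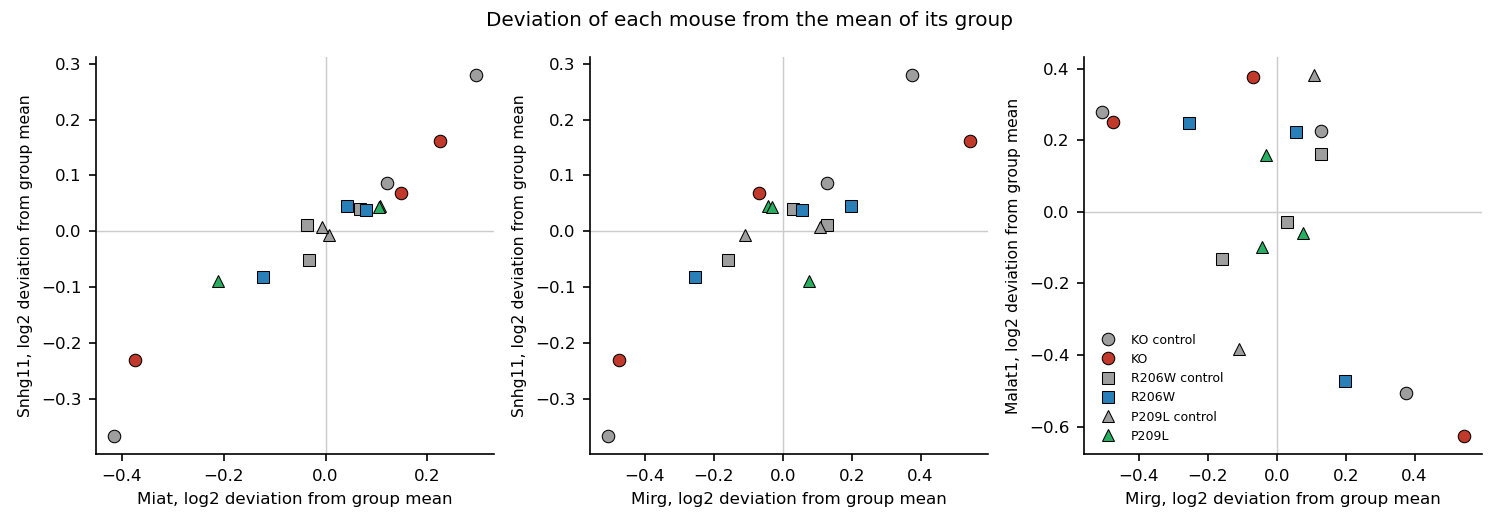
Deviation of each mouse from its group mean in log2(TPM + 1), for Snhg11 against Miat, Snhg11 against Mirg and Malat1 against Mirg, with 1 point per mouse (n = 17), shapes by line and grey for controls. The first pair lies along a line (r = 0.97), the third falls from left to right through 3 low Malat1 mice (r = -0.59).

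The genes most like each member in these deviations were read as a description. For Miat they were Dgka (r = 0.98), Rbm33 (0.97) and Meg3 (0.97), for Snhg11 Vars2 (0.99), Hdhd5 (0.98) and Smg5 (0.98), and for Mirg Zfp598 (0.98), Atg16l2 (0.98) and Hdac7 (0.97). For Rian they were Gm10052 (0.94), Prmt9 (0.93) and Cdkn2d (0.93). Pantr1 was most like Rpl36 (0.92), a ribosomal protein gene, Atp5e (0.90), a subunit of ATP synthase, and Gm10136 (0.83). Malat1 was most like Gm43339 (0.94), Xkr6 (0.88) and Gm43593 (0.87), and Neat1 like H2-K2 (0.91), Inmt (0.84) and Ctla2b (0.84), all 6 with a mean of 1.06 to 2.72 TPM.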

How the data were processed

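The authors deposited one table of TPM values by gene symbol, with a column for each of the 17 mice. The submitters' processing notes name Trim Galore, STAR 2.7.1a, RSEM, GATK 4.0.4.0 and build mm10, without roles, and the annotation is not given in the sources used here. TPM is scaled to transcript length and to a fixed total, so depth is unknown and abundant mitochondrial RNA lowers every other value. Columns summed to 1000000 within rounding, and no columns were identical. Repeated symbols (120 of 55573 rows) were summed, and 98.4% of symbols matched GENCODE M21.

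Genes with a mean of at least 1 TPM (16265) were fitted as log2(TPM + 1) in R 4.3.3 with the package limma, version 3.58.1. All 17 mice entered one linear model with 6 group means, and variances were moderated with an intensity trend (eBayes, trend=TRUE). Folds are on this scale, which understates changes of low genes. Tests were two-sided. Within each of 9 contrasts the Benjamini-Hochberg adjustment covered every gene tested, at a threshold of 0.05. Exact permutation tests of mean log2(TPM + 1) were two-sided and went through every arrangement of the mice in Python 3.11.15. The 95% intervals and Spearman's rho used scipy 1.17.1. The fit was tested on simulated data. Each sample is a separate mouse by its label, and litters are not given. Genes named are the 7 members, up to 4 genes by smallest p from each list and comparison, the nearest protein-coding neighbours and the 3 genes most like each member. Some items are not reported here. The members, lists and tests were chosen with earlier results of these data known. Alternatives were pseudocounts of 0.1 and 0.5, other filters and scalings, sample weights, robust fits, a replicate block and each mouse left out. Sequences are from GENCODE M21 transcripts and RefSeq.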

Additional observations from a re-analysis of the deposited data

How the results depend on the processing

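No member passed the threshold in KO, R206W or P209L, nor in the differences between these effects or between the 8-week controls, under any alternative run. The lowest adjusted p of a member in the mutant comparisons was 0.105 (Pantr1 in KO, with sample weights). Of 1274 member differences under alternatives, 92 changed sign, 0 of them past the threshold in either fit, 13 lost their call and 20 gained one. Depth is unknown, so no detection limit can be given.

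For the age comparison of controls, where 3 members passed, 5 passed with size factors, 5 without mitochondrial genes and their pseudogenes and 1 with no filter on low values, and 1 to 4 passed with 1 mouse left out. For mutants, where 3 passed, the numbers were 6 with size factors, 5 without mitochondrial genes, 5 with sample weights and 5 with the replicate block, and 2 to 4 with 1 mouse left out. Over all genes, 44.1% passed in controls with size factors, 7165 of 17136 without mitochondrial genes and 5465 of 33969 with no filter. In mutants these were 51.4% with size factors and 8513 of 17136 without mitochondrial genes. With sample weights 10590 of 16265 genes passed in mutants, and 8036 with the replicate block. Size factors bring the median of all genes near 0 by construction, whereas without mitochondrial genes it was -0.068 in controls and -0.087 in mutants. For the other changes the cause was not tested.

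Counts over all genes moved by more than 1.5 times as follows. In KO (1 gene), 2 genes passed with no filter, 0 in a fit of its own groups, 2 with a robust fit and 7 with sample weights, and 1 to 5 with 1 mouse left out (5 without KO control 1, 2 without KO control 2 or KO 1). In R206W (6), 10 passed in its own groups, 11 with quantile normalization and 347 with sample weights, and 5 to 6 with 1 mouse left out. In P209L (16), 66 passed with size factors, 52 with no filter, 6 in its own groups, 58 with quantile normalization, 378 with sample weights and 48 without mitochondrial genes, and 8 (without P209L control 2) to 26 (without P209L control 1) with 1 mouse left out. Between control groups of 8 weeks (0), 1 passed in their own groups, 1 with a robust fit and 8 with sample weights, and 0 to 3 with 1 mouse left out. For KO minus R206W (5), 3 passed in its own groups and 50 with sample weights, and 3 to 12 (without KO control 1) with 1 mouse left out. For KO minus P209L (8), 26 passed with size factors, 18 with no filter, 4 in its own groups, 18 with quantile normalization, 104 with sample weights and 20 without mitochondrial genes, and 5 (without P209L control 2) to 22 (without KO control 1) with 1 mouse left out. For R206W minus P209L (0), 7 passed with no filter, 1 with either other pseudocount and 100 with sample weights, and 0 to 2 with 1 mouse left out. For age, 9016 passed in controls with sample weights (5876), and 2719 (without P209L control 2; 2988 without P209L control 1) to 8181 in controls and 5559 to 7190 in mutants (7470) with 1 mouse left out. The sample weights gave KO control 2 a weight of 2.44e-14 and did not converge.

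Over all genes tested, the replicate numbers showed no consistent pairing of the mice. Same-numbered mice had correlations of their deviations of 0.12, -0.058 and 0.33 in the KO line, -0.028, -0.030 and -0.11 in the R206W line, and 0.081 and 0.0028 in the P209L line. In the order of these numbers, Malat1 deviated by 0.28, 0.23 and -0.51 in KO control and by 0.38, 0.25 and -0.63 in KO. In R206W it deviated by 0.25, 0.22 and -0.47, and in R206W control by 0.16, -0.13 and -0.029. In P209L it deviated by -0.060, -0.098 and 0.16, and in P209L control by -0.38 and 0.38. With the replicate block Malat1 passed between ages in mutants (0.57 ± 0.20, adjusted p = 0.0310 by limma). Whether Malat1 follows the replicate numbers was not tested. With the replicate block, 25 genes passed in P209L and 16 in KO minus P209L, and counts elsewhere stayed within 1.5 times, with 1 in KO, 7 in R206W, 5887 between ages in controls and 8036 in mutants.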
